A study of Homo sapiens with 12 samples.

Results

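The genes described here encode collagen chains, laminin chains, integrin chains and fibronectin, the main fibrous and adhesive proteins of the extracellular matrix and the cell surface receptors that bind them. Members were taken by symbol: names of the form COL, number, A, number, names of the form LAMA, LAMB or LAMC with a number, names beginning with ITGA or ITGB, and FN1, without antisense genes and pseudogenes. The rule found 85 of the 43769 genes in the count table: 44 collagens, 12 laminins, 18 integrin alpha names, 8 integrin beta chains, FN1, and 2 names that are no integrin chain, ITGB3BP, a centromere protein, and ITGBL1, a secreted protein with integrin-like repeats. Transcripts were counted by RNA sequencing in SK-N-DZ, a MYCN-amplified neuroblastoma line with wild type ARID1A, in a single clone that carried a doxycycline-inducible short hairpin RNA against ARID1A, a subunit of the SWI/SNF chromatin remodeler. The 4 groups of 3 libraries were control (C, genotype labelled WT, no doxycycline and no interferon gamma), doxycycline (D, labelled shARID1A, 4 days), IFNγ (I, 24 h) and both (DI, doxycycline for 4 days with IFNγ for 24 h). By the series' design all 12 libraries came from cells with the hairpin construct, and none here had doxycycline without the hairpin, so an effect of the drug itself and one of the hairpin cannot be told apart. The comparisons asked how IFNγ changed these genes (I vs C and DI vs D), how hairpin induction changed them (D vs C and DI vs I), and whether the change with doxycycline differed with IFNγ present (the interaction).

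Collagens assemble from 3 chains, either as fibrils (types I, II, III, V and XI) or as the sheet of type IV that lies under epithelia and around vessels and nerves. Laminins are trimers of an alpha, a beta and a gamma chain and, with type IV collagen, form the basement membrane, while fibronectin is laid down as fibrils by cells that hold it through integrins. An integrin is a pair of an alpha and a beta chain: the beta 1 chain pairs with most collagen, laminin and fibronectin receptors, and alpha V pairs with several beta chains to bind proteins with the RGD motif, fibronectin and the latent form of TGF-beta among them.

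Libraries held 16469832 to 21790869 counts, at which 3 counts, taken as the detection floor, equal 0.135 to 0.187 CPM (counts scaled to a fixed library size, after TMM). Fold changes, their standard errors and adjusted p-values come from edgeR's quasi-likelihood test, with an adjusted p under 0.05 named a call. The groups share replicate numbers 1 to 3, which paired the libraries, so values from a model with that number as an added term stand beside those without it. The targeted gene ARID1A averaged 171 ± 22.2 CPM in D beside 183 ± 16.4 in C, and 144 ± 9.69 CPM in DI beside 196 ± 5.72 in I (SD, n = 3). Its log2 change was −0.09 without IFNγ (D vs C, adjusted p = 0.788) and −0.44 with it (DI vs I, adjusted p = 0.115, or 0.0111 with the replicate number in the model). Thus ARID1A mRNA in D differed from C by less than the spread between replicates, although D is labelled as a knockdown. The paper reports lower ARID1A in SK-N-DZ hairpin cells by qPCR and by Western blot, measures other than these counts. The IFNγ check genes IRF1, GBP1 and TAP1 rose in both IFNγ comparisons, and CXCL10 was not above the floor in any library. By qPCR and ELISA, the paper reports less CXCL10 after hairpin induction in SK-N-DZ cells given IFNγ. These counts do not show that transcript. Adrenergic neuroblastoma markers summed to 4300 to 5700 CPM. Endothelial markers stayed at or under 2.95 CPM and leukocyte markers at or under 1.25, with PECAM1 at 0 in all libraries. Fibroblast markers summed to 74.4 to 174 CPM, although FAP, 1 of the 7, was at 0 in all libraries. The share of mitochondrially encoded mRNA was 0.857 to 1.30% with doxycycline (D) and 3.35 to 4.99% without it (C), and under IFNγ 0.768 to 2.58% (DI) and 2.90 to 4.42% (I). That share moved with doxycycline, and its part in the results on doxycycline was not tested.

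Of the 85 members, 57 passed the filter on low counts and were tested, among 15828 genes. The other 28 had 0 to 74 counts over the 12 libraries together (median 10), and 3 of them, ITGAD, ITGB6 and ITGB7, had none. Neighbouring genes share 20.6% of the exon length of ITGB6 and 42.1% of that of ITGB7. How reads in shared exons were counted is not stated. Levels are compared between genes only as RPKM (CPM divided by the length of the transcript with the longest coding sequence). FN1 was the highest member, with a mean of 170 RPKM and a range over libraries of 42.6 to 374. The beta 1 integrin chain ITGB1 came next at 59.5 RPKM, followed by the collagen IV chain COL4A2 at 56.3 and the laminin beta 1 chain LAMB1 at 41.0. The ranges of ITGB1, COL4A2 and LAMB1 overlapped, so their order was not resolved. With the union of all exons as the length, COL4A2 came behind FN1, ITGB1, LAMB1 and ITGAV.

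**Figure D1:**
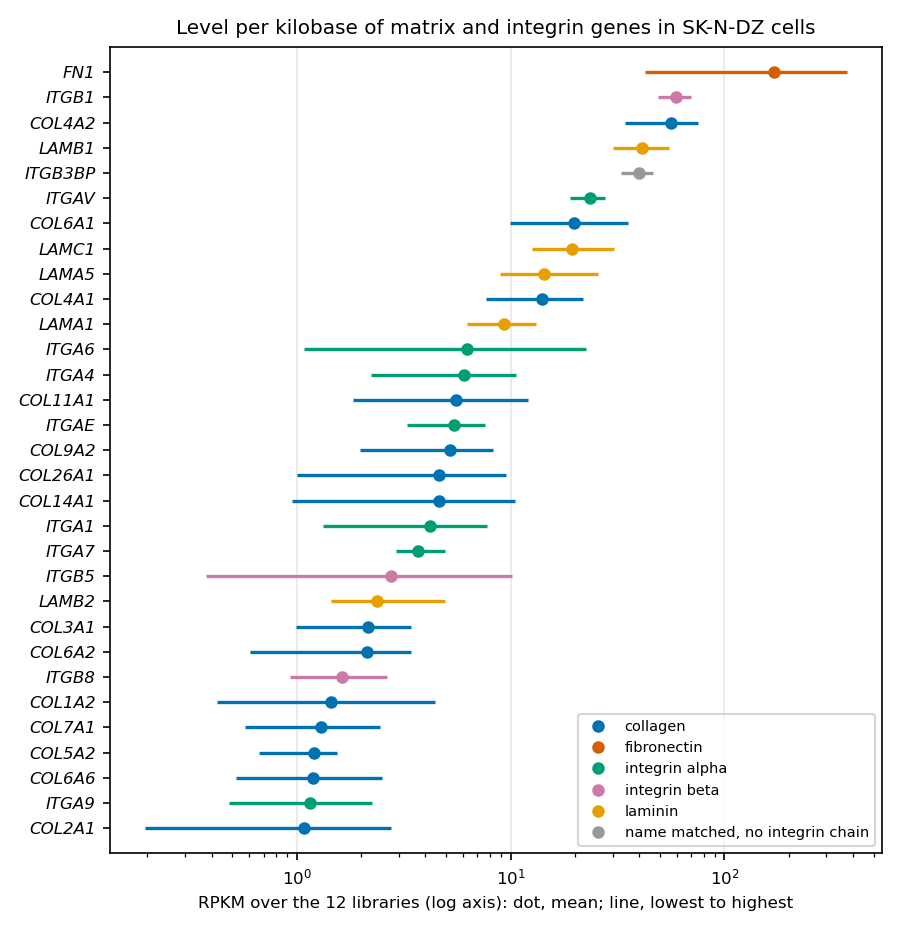
Level in RPKM, on a log axis, of the 31 tested members with a mean of at least 1 RPKM; dots are means over the 12 libraries and lines run from the lowest to the highest library. FN1 lies highest at a mean of 170, and ITGA6 and ITGB5 have wide ranges.

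The expressed chains made up a limited set of matrix proteins and receptors. Laminin subunits present above 9 RPKM were LAMA1 (9.30), LAMA5 (14.4), LAMB1 (41.0) and LAMC1 (19.5), the subunits of laminin-111 and laminin-511, and the epithelial chain LAMB3 had 12 counts in all. Among collagens, COL4A2, COL6A1 (19.8 RPKM) and COL4A1 (14.0) led, and collagen IV chains COL4A3 to COL4A6 did not pass the filter. COL6A1 and COL6A2, chains of the same beaded filament collagen, differed, with COL6A2 at 2.14 RPKM and COL6A3 at 0.278. The partner chains of fibrillar collagens were as uneven: COL1A2 averaged 1.45 RPKM and COL1A1, which supplies most of the type I trimer, 0.191, while COL5A2 averaged 1.21 and COL5A1 had 32 counts in all.

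On the receptor side, ITGAV (23.6 RPKM) was the highest alpha chain, ahead of the laminin receptor chain ITGA6 (6.25) and ITGA4 (6.05), which binds fibronectin and VCAM1. The alpha chain of the classical fibronectin receptor, ITGA5, had 40 counts over all libraries and lay between 0 and 0.569 CPM. The platelet and endothelial alpha V partner ITGB3 had 4 counts, which left ITGB1, ITGB5 (2.75 RPKM) and ITGB8 (1.62) as the partners of ITGAV that were detected well. Another gene on the same strand shares 51.6% of the exon length of ITGB3, and how shared reads were counted is not stated. The summed level of the 12 alpha chains that can pair with beta 1 was 38.1 to 60.3 RPKM, beside 48.9 to 70.0 for ITGB1 itself. Members that failed the filter were not tested for differences, so they are described by their levels only.

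Fibronectin was the member that changed most clearly with IFNγ. FN1 (ENSG00000115414, chr2:215360440-215436172, minus strand, GRCh38) stood at 379, 621 and 487 CPM in C and at 1786, 2985 and 3330.1 CPM in I, replicates 1 to 3. Every I library lay above every C library. The log2 fold change was 2.45 (SE 0.34, adjusted p = 0.0019), a 5.45-fold rise, and DESeq2 and each other setting kept the call. With doxycycline the levels were 595, 1067 and 876 CPM in D and 1239.9, 2662 and 2177 CPM in DI. The groups again did not overlap, and the rise of 1.26 (SE 0.33) was called with the replicate number in the model (adjusted p = 5.13e-05) but not without it (0.129). With 1 library left out and no number in the model, this rise ran from 1.015 to 1.52. Among those 12 fits it was called only without DI replicate 1 (adjusted p = 0.0443), and the highest adjusted p was 0.504. FN1 took 0.0370 to 0.0620% of all counts in C and 0.171 to 0.317% in I.

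The RefSeq promoter window of FN1 (250 bases before to 50 after the transcription start, GRCh38.p14, chr2:215436019-215436318, minus strand) is shown because FN1 had the largest change of the members called without the number in the model. Capitals mark the palindrome TGACGTCA, the letters of a cAMP response element.
FN1: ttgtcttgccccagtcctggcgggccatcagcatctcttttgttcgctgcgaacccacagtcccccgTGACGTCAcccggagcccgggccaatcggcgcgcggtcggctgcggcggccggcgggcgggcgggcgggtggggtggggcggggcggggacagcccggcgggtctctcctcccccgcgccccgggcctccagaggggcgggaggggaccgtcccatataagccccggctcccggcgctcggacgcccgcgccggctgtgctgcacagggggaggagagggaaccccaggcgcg
The palindrome began at base 68 of the window and occurred in 1.85% of all 35116 promoter windows, and in 1 of the 80 windows matched to 61 members. The STAT-type palindrome TTCNNNGAA was not among the letters of this window, though 7.66% of all windows and 4 of the 80 held it. Nor was the ISRE-type pair of GAAA words set 2 bases apart, searched on both strands, which 3.57% of all windows and 2 of the 80 held. These matches describe the letters only.

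**Figure D2:**
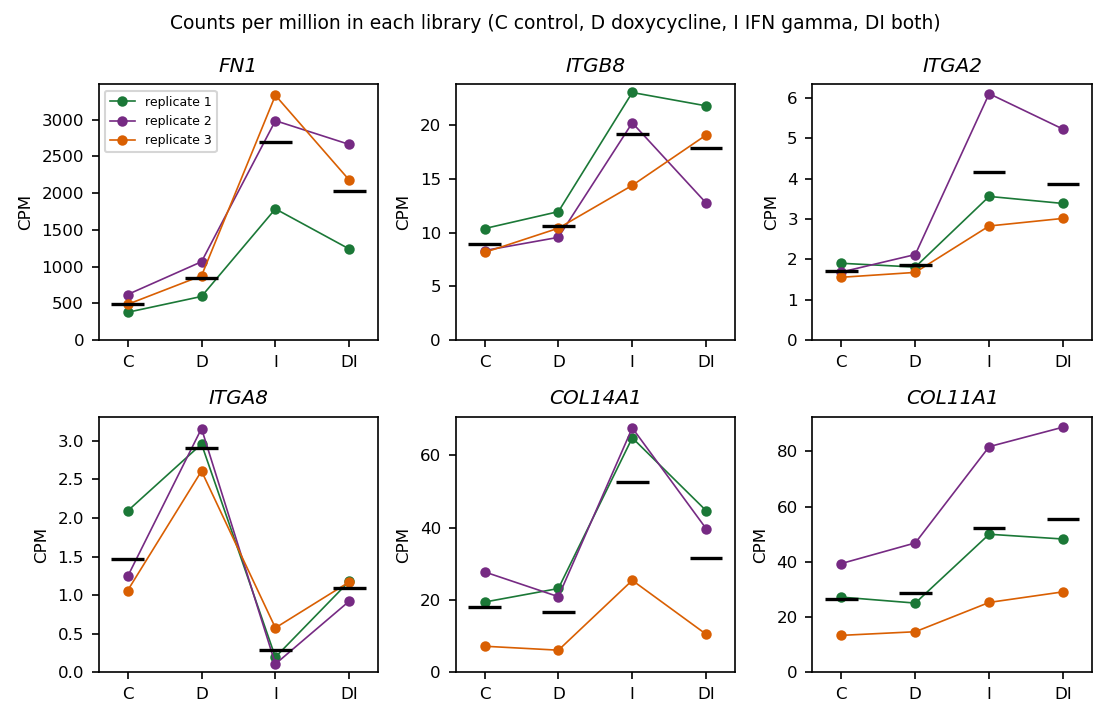
CPM in each library for 6 members, by group (C, D, I, DI); lines join libraries with the same replicate number and black bars are group means. FN1, ITGB8, ITGA2 and COL11A1 lie higher in I than C for each number, ITGA8 lies lower, and FN1 falls from I to DI in each number.

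Of the 57 tested members, 2 were called in I vs C, FN1 and ITGB8, both higher, where 2.21% of all tested genes were called (2.1% higher, 0.114% lower). No member was called in DI vs D (1.72% of all genes). At an unadjusted p under 0.05 there were 6 (10.5%, all genes 6.24%), and DESeq2 called 1 (1.52%, all genes 2.21%). With the number in the model 11 members were called in I vs C (9 higher, 2 lower; background 6.02%, 4.88% higher and 1.14% lower). In DI vs D the same model called 8 (7 higher, 1 lower; background 4.46%, 3.77% higher and 0.695% lower). The median log2 change over the 57 was 0.13 in I vs C and 0.12 in DI vs D, beside −0.01 for all genes in both. Of these members, 32 and 37 lay above 0, beside 48.4% and 47.1% of all genes. The median size of the change was larger for members than for all genes in each comparison, at 0.49 and 0.15 in I vs C, 0.397 and 0.14 in DI vs D, 0.378 and 0.22 in D vs C and 0.302 and 0.21 in DI vs I. Such sizes include the spread between libraries. The share of variance between replicate numbers was also larger in members (median 53.4%, all genes 35.9%). The labels do not say that replicates were separate cultures, so p-values measure the spread between these libraries, which may be technical.

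ITGB8, an alpha V partner known for releasing active TGF-beta from its latent complex, rose 2.14-fold with IFNγ. It stood at 10.4, 8.34 and 8.17 CPM in C and at 23.1, 20.2 and 14.4 CPM in I, with no overlap. The log2 change was 1.10 (SE 0.23, adjusted p = 0.0311). This call was lost without C replicate 1 (adjusted p = 0.0610), C replicate 2 (0.134), C replicate 3 (0.148), I replicate 1 (0.139), I replicate 2 (0.117) or DI replicate 3 (0.0504), at log2 changes of 0.95 to 1.21, and in a fit of the 2 groups alone (0.0561). With doxycycline the values were 11.97, 9.57 and 10.4 CPM in D and 21.8, 12.8 and 19.1 CPM in DI. That difference, 0.75 on the log2 scale (SE 0.23), had an adjusted p of 0.261, and of 0.0336 with the replicate number in the model. The latter call was kept in 5 of 12 fits with 1 library left out.

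ITGAV, the partner chain, averaged 174 ± 18.7 CPM in C and 174 ± 16.5 in I (SD, n = 3), and was not called in either IFNγ comparison. The ratio of ITGB8 to ITGAV per kilobase was 0.0344 to 0.0600 in the 6 libraries without IFNγ and 0.0720 to 0.110 in the 6 with it. The ranges did not overlap. This ratio was chosen after its values were seen, among 10 ratios computed, so it is given as a description with no test. The other alpha V partner, ITGB5, went the other way: it stood at 16.5, 6.56 and 44.3 CPM in C and at 7.52, 3.98 and 26.2 CPM in I. The groups overlapped, but each number fell, and the change of −0.86 (SE 0.18) was called with the number in the model (adjusted p = 0.0155) and not without it (1.00).

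ITGA8, which pairs with beta 1 to bind fibronectin and other RGD proteins, was lower with IFNγ. It was a low transcript, with 34, 25 and 17 counts in C and 4, 2 and 11 in I, or 2.09, 1.24 and 1.06 CPM against 0.198, 0.109 and 0.577. Its groups did not overlap, and the change of −2.29 (SE 0.52) missed the threshold narrowly (adjusted p = 0.0521) and passed with the number in the model (0.0209), with DESeq2 (0.00184) and without I replicate 3 (−3.20, 0.00563). In D it stood at 2.96, 3.16 and 2.61 CPM and in DI at 1.18, 0.923 and 1.17 CPM, so that DI lay above I and below D without overlap. The difference of DI from I was 1.87 (SE 0.52, adjusted p = 0.164, or 0.0410 with the number in the model). With the number and 1 library left out, the ITGA8 call was kept in 8 of 12 fits in I vs C and in 5 in DI vs I.

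ITGA2, the alpha chain of a collagen and laminin receptor, was at 1.91, 1.69 and 1.56 CPM in C and at 3.56, 6.11 and 2.83 CPM in I. It was called with the number in the model in I vs C (1.22, SE 0.25, adjusted p = 0.0150) and in DI vs D (1.02, SE 0.25, adjusted p = 0.0428), while without the number the adjusted p was 0.107 and 0.311. With 1 library left out in turn, these calls were kept in 9 and 3 of 12 fits. All I libraries exceeded all C libraries. Another laminin receptor chain, ITGA6, was called higher in I vs C only with the number in the model (1.45, SE 0.37, adjusted p = 0.0476). Its values, 5.04, 4.82 and 20.2 CPM in C and 16.03, 13.9 and 38.8 CPM in I, overlapped, with replicate 3 high in both groups. The ITGA6 call was kept in 4 of 12 fits with 1 library left out.

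Of the 28 tested collagens, 15 lay above 0 and 13 below in I vs C, and 5 were called with the number in the model, all higher. Of all genes, 48.4% lay above 0 and that model called 4.88% higher and 1.14% lower. COL3A1, the fibrillar collagen of soft tissues, lay lower inside each number, at 9.404, 15.4 and 18.0 CPM in C and 5.49, 13.5 and 10.3 CPM in I, and was not called. COL14A1, a FACIT collagen that coats fibrils, was at 19.4, 27.8 and 7.23 CPM in C and at 64.8, 67.5 and 25.4 CPM in I. With the number in the model it rose by 1.6 (SE 0.16, adjusted p = 8.99e-05), and without the number the adjusted p was 0.576. The rise of COL14A1 in DI vs D was also called only with the number (0.89, adjusted p = 0.00818). That call was kept in 10 of 12 fits with 1 library left out. COL11A1, a fibril-nucleating chain, was at 27.2, 39.4 and 13.4 CPM in C and at 49.97, 81.6 and 25.3 CPM in I. Its change was 0.95 in I vs C (SE 0.09, adjusted p = 6.57e-05) and 0.95 in DI vs D (SE 0.09, adjusted p = 7.18e-05) with the number in the model, and 0.97 and 0.94 without it, where the adjusted p was 0.862 and 1.00. Its within-number log2 differences were 0.87, 1.05 and 0.91 in I vs C and 0.94, 0.92 and 0.98 in DI vs D, so the 6 values lay close together. COL2A1, the cartilage collagen, was called by the same model in both comparisons (1.10, adjusted p = 0.0408, and 1.28, adjusted p = 0.0187) at means of 2.90 to 9.11 CPM. Its calls were kept in 5 and 8 of 12 fits with 1 library left out.

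COL1A2, a chain of the main fibrillar collagen, was at 2.34, 6.01 and 2.31 CPM in C and at 9.20, 23.9 and 5.29 CPM in I. It was called in I vs C with the number in the model (1.77, SE 0.42, adjusted p = 0.0302) and by DESeq2 (adjusted p = 0.0105), and without the number only when I replicate 3 was left out (2.20, adjusted p = 0.0436, against 0.148 with it). With the number and 1 library left out, the COL1A2 call was kept in 7 of 12 fits. COL1A1 was not called in any comparison and reached 5.02 CPM at most. Fibroblast markers, which could mark cells that make these collagens, summed to 104 to 156 CPM in C and 130 to 174 CPM in I, and to 74.4 to 112 in D and 94.9 to 144 in DI. Of the 7, PDGFRB alone was called in I vs C with the number in the model (0.91, adjusted p = 0.00212). From C to I the means were 24.8 and 22.03 CPM for PDGFRA, 62.8 and 56.2 for THY1, 2.02 and 0.890 for LUM and 0.735 and 1.83 for ACTA2, while FAP was at 0 and DCN did not exceed 0.629 CPM in any library. The part of such cells in the collagen values was not tested, and in bulk RNA fewer cells of a type and less RNA per cell cannot be told apart.

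The collagen IV genes COL4A1 (chr13:110148963-110307233, minus strand) and COL4A2 (chr13:110305812-110513209, plus strand; GRCh38) lie head to head and supply the common alpha1-alpha1-alpha2 trimer of basement membranes. COL4A1 was at 80.3, 86.6 and 51.0 CPM in C and at 119, 132 and 65.7 CPM in I. With the number in the model it was called in I vs C (0.52, SE 0.12, adjusted p = 0.0332) and in DI vs D (0.61, SE 0.12, adjusted p = 0.0174), and not without it (0.899 and 1.00). With 1 library left out in turn, the I vs C call was kept in 3 of 12 fits and the DI vs D call in 9 of 12. COL4A2, at 342 ± 97.4 CPM in C and 375 ± 125 in I (SD, n = 3), was not called in either. The ratio of COL4A1 to COL4A2 per kilobase was 0.208, 0.204 and 0.217 in control libraries and 0.298, 0.265 and 0.267 with IFNγ alone. With doxycycline it was 0.241, 0.198 and 0.235, and with both agents 0.290, 0.272 and 0.272. All 6 libraries with IFNγ lay above all 6 without it, a description with no test, since this ratio too was chosen after its values were seen. Over the 12 libraries the ratio ran from 0.198 to 0.298, while COL4A2 ran from 223 to 490 CPM.

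The RefSeq window of COL4A2 is shown for its overlap with that of COL4A1, because the ratio of these chains separates the IFNγ libraries (GRCh38.p14, chr13:110307034-110307333, plus strand). Capitals mark the 226 bases, chr13:110307108-110307333, that also belong to the COL4A1 window on the other strand.
COL4A2: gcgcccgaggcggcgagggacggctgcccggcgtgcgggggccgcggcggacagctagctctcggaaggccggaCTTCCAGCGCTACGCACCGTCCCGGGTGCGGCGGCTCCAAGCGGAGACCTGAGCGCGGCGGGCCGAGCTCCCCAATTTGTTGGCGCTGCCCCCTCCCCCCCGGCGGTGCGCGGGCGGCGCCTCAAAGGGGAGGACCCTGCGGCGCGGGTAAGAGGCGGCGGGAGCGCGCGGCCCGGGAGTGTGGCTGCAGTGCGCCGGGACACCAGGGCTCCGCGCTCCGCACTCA
Neither window held TGACGTCA, TTCNNNGAA or the ISRE-type pair.

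**Figure D3:**
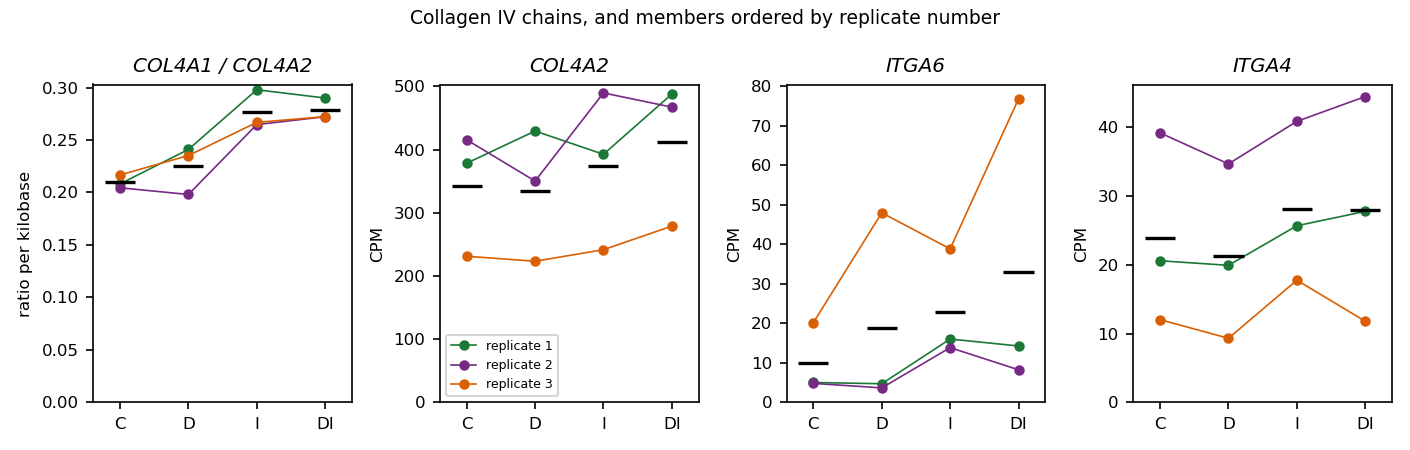
Ratio of COL4A1 to COL4A2 per kilobase, and CPM of COL4A2, ITGA6 and ITGA4, in each library by group (C, D, I, DI); lines join replicate numbers and black bars are group means. The ratio is at most 0.241 without IFNγ and at least 0.265 with it, while replicate 3 is lowest for COL4A2 and ITGA4 and highest for ITGA6 in each group.

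Doxycycline gave no called member without the number in the model, either alone (D vs C, where 1.23% of all genes were called) or under IFNγ (DI vs I, 0.67%). At an unadjusted p under 0.05 there were 5 and 6 members (8.77% and 10.5%), beside 14.2% and 12.2% of all genes. DESeq2 called 1 and 2 (2.33% and 4%), beside 4.75% and 3.13% of all genes it tested. With the number in the model, 7 members were called in D vs C (4 higher, 3 lower) against a background of 13.9% (6.23% higher, 7.67% lower). The same model called 8 in DI vs I (4 higher, 4 lower) against 10.5% (3.85% higher, 6.62% lower). As shares of the 57 these are 12.3% and 14.0%, near the backgrounds. The median change over members was −0.02 without IFNγ and −0.10 with it, beside −0.0012 and −0.0068 for all genes. Collagens lay below 0 more often than above (19 of 28 without IFNγ, 18 of 28 with it), a count with no test of its own. Of all genes, 49.6% and 48.9% lay above 0. With the number in the model, 1 collagen was called higher and 2 lower in each of these comparisons.

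The laminin chains LAMA1 and LAMC1, which belong to the same trimer, were the members called higher in both doxycycline comparisons. LAMA1 (chr18:6941744-7117814, minus strand, GRCh38) was at 80.8, 66.2 and 66.6 CPM in C and at 124, 81.5 and 115 CPM in D. Under IFNγ it was at 82.1, 60.3 and 73.0 CPM in I and at 112, 89.1 and 128 CPM in DI. Neither pair of groups overlapped, and each number rose in each. The changes with the number in the model were 0.56 (SE 0.10, adjusted p = 0.00686) and 0.61 (SE 0.10, adjusted p = 0.00596), and without it the adjusted p was 0.181 and 0.202. An antisense gene shares 10.3% of the exon length of LAMA1, and the counting is not stated to use strand.

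LAMC1 (chr1:183023460-183145592, plus strand) was at 133, 127 and 146 CPM in C and at 215, 159 and 240 CPM after doxycycline. Under IFNγ it was at 107, 98.99 and 133 CPM in I and at 144, 131 and 209 CPM in DI. Its changes were 0.58 without IFNγ (SE 0.10, adjusted p = 0.00503) and 0.50 with it (SE 0.10, adjusted p = 0.0124) with the number in the model, and the adjusted p was 0.199 and 0.325 without it. The LAMC1 call under IFNγ was kept in 9 of 12 fits with 1 library left out. LAMC1 did not overlap between C and D and did between I and DI. The third subunit of that trimer, LAMB1, was not called in any comparison and stood at 175 to 317 CPM. No laminin was called in an IFNγ comparison.

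**Figure D4:**
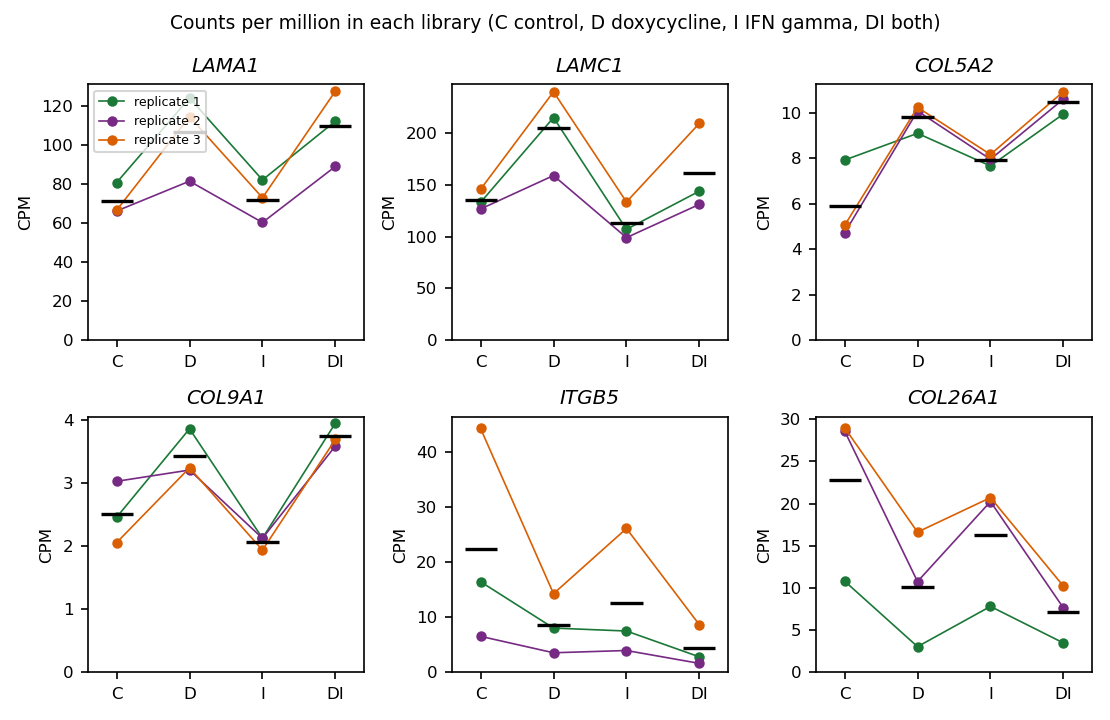
CPM in each library for 6 members, by group (C, D, I, DI); lines join libraries with the same replicate number and black bars are group means. LAMA1, LAMC1 and COL5A2 lie higher in D than in C for each number, and ITGB5 and COL26A1 lie lower.

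COL5A2, a regulator of fibril width, was at 7.93, 4.72 and 5.05 CPM in C and at 9.11, 10.1 and 10.3 CPM in D. The groups did not overlap, and the change was called with the number in the model (0.75, SE 0.19, adjusted p = 0.0273) and by DESeq2 (0.0189). Without the number it was called only when C replicate 1 was left out (0.99, adjusted p = 0.0444, against 0.118 with it). With the number, the COL5A2 call was kept in 7 of 12 fits with 1 library left out. COL9A1, a FACIT collagen of cartilage, was called in DI vs I: it was at 2.13, 2.13 and 1.94 CPM in I and at 3.95, 3.59 and 3.69 CPM in DI, without overlap. The change was 0.86 (SE 0.21, adjusted p = 0.0295 with the number in the model, 0.146 without). With the number, the COL9A1 call was kept in 7 of 12 fits with 1 library left out.

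ITGB5 and COL26A1 were called lower in both doxycycline comparisons with the number in the model. ITGB5 was at 8.06, 3.57 and 14.3 CPM in D and at 2.82, 1.64 and 8.65 CPM in DI, below the same-numbered library of C and I in 6 of 6 pairs. Its changes were −1.19 (SE 0.18, adjusted p = 0.00286) without IFNγ and −1.45 (SE 0.19, adjusted p = 0.00187) with it, and it was also called lower in DI vs D (−1.12, SE 0.20, adjusted p = 0.00691). Without the number the 2 changes moved to −0.41 without C replicate 3 and to −0.38 without I replicate 3, and that of I vs C turned from −0.84 to 0.13 without C replicate 3. With the number, leaving out each library gave −1.37 to −0.94 and −1.56 to −1.26 with doxycycline, all called, and −1.04 to −0.74 in I vs C, where the call was lost without C replicates 1 or 3 or I replicates 1 or 2. The DI vs D call was lost without DI replicate 1 (adjusted p = 0.0548). ITGB5 had the lowest mean, 4.37 ± 3.75 CPM, in DI and the highest, 22.5 ± 19.6, in C (SD, n = 3). COL26A1, an emilin-like collagen, was at 10.8, 28.6 and 28.98 CPM in C and at 3.05, 10.8 and 16.6 in D. Its changes were −1.29 (SE 0.18, adjusted p = 0.00204) and −1.20 (SE 0.19, adjusted p = 0.004). Without the number neither gene reached the threshold, at adjusted p of 0.437 to 0.562 in the doxycycline comparisons.

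COL25A1 and COL14A1 were also called with doxycycline. COL25A1, a transmembrane collagen of neurons, was called lower in D vs C with the number in the model (adjusted p = 0.0185), but it had 54, 0 and 1 counts in C and 3, 0 and 0 in D, so the call rests on C replicate 1. Its count was 55 in I replicate 1 and 11 in DI replicate 1, and 0 in the other replicates of both groups. COL14A1 was called lower in DI vs I only with the number in the model (−0.84, SE 0.15, adjusted p = 0.00864). That call was lost without DI replicate 3 (adjusted p = 0.0567). COL14A1 was at 44.7, 39.7 and 10.5 CPM in DI.

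FN1 was higher with doxycycline alone and, by a smaller amount with a call that depended on single libraries, lower with doxycycline under IFNγ. D exceeded C in each number, by differences of 0.65, 0.78 and 0.85 on the log2 scale, and DI lay below I in each number, by differences of −0.53, −0.17 and −0.61. With the number in the model the change was 0.75 without IFNγ (SE 0.11, adjusted p = 0.00243) and −0.44 with it (SE 0.11, adjusted p = 0.0332), and without it the adjusted p was 0.314 and 0.698. Leaving out each library with the number in the model gave 0.66 to 0.85 without IFNγ, all called. With IFNγ it gave −0.54 to −0.29, and the call was lost without I replicates 1 or 3 or DI replicates 1 or 3 (adjusted p up to 0.173). Without the number that change ran from −0.66 without DI replicate 2 to −0.16 without DI replicate 1. No member was called in the interaction with the groups alone (0% of all genes) or with the number added (0%), where FN1 had −1.19 and adjusted p of 1.00 and 0.172. At an unadjusted p under 0.05, 1 member (1.75%) and 99 genes (0.625%) stood out without the number. With the number fitted within each doxycycline arm, FN1 was the 1 member called of 57, against 0.0253% of all genes, at −1.19 (SE 0.13, adjusted p = 0.0009). Leaving out each library kept that call, with changes of −1.27 to −0.997.

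**Figure D5:**
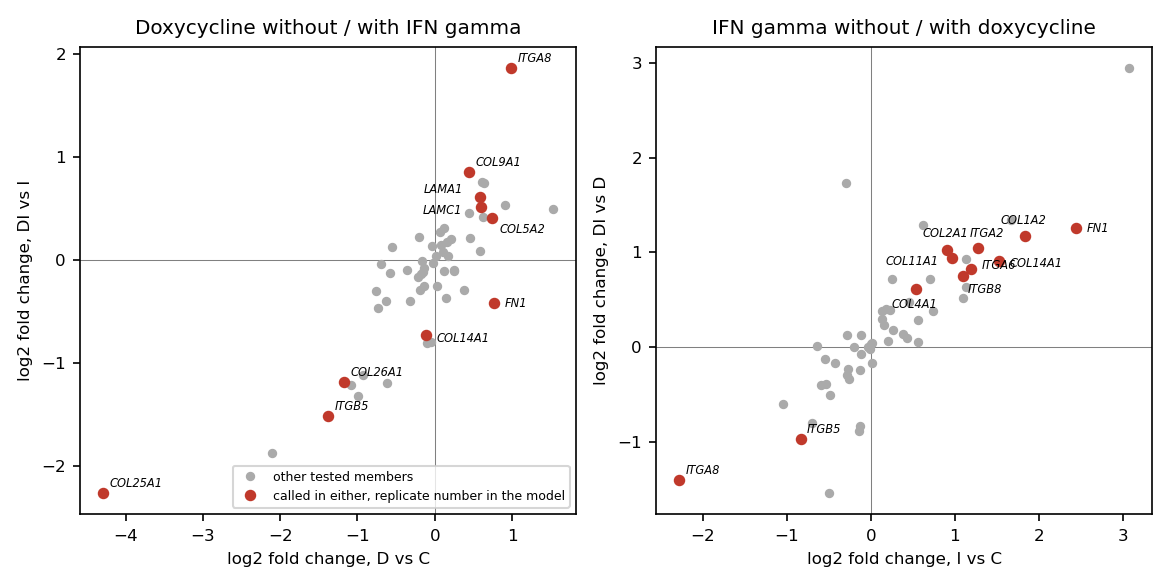
Log2 fold changes of the 57 tested members without the number in the model: left, doxycycline without IFNγ (horizontal) and with it (vertical); right, IFNγ without doxycycline (horizontal) and with it (vertical). The 2 axes of a panel share no library; red members were called in either comparison with or without the number, and FN1 is the red point in the lower right of the left panel.

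ITGB1 ran from 182 to 261 CPM over the 12 libraries, with means of 199 ± 5.07 in C and 235 ± 35.9 in DI (SD, n = 3), and it was not called in any comparison, with or without the number. LAMA5, the alpha chain of laminin-511, was at 132, 101 and 250 CPM in control libraries and at 126, 122.7 and 292 CPM with IFNγ alone. Replicate 3 was the highest in each group, and LAMA5 was not called either. COL6A1 was at 106, 124 and 60.1 CPM in C and at 59.3, 151 and 46.6 CPM in D, so the order of the groups changed with the number, and no collagen VI chain was called in any comparison. The ratio of COL6A1 to COL6A2 per kilobase lay between 6.93 and 10.9 in 11 libraries and at 23.1 in D replicate 1, where COL6A2 had its lowest level, 2.10 CPM.

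Replicate number accounted for much of the spread in these genes. In the model with the number, the number itself was called for 34 of 57 members (59.6%), beside 44% of all tested genes. The median share of the variance in log2 CPM that lay between numbers was 53.4% for members and 35.9% for all genes, and the share between groups was 24.0% and 31.1%. Replicate 2 was highest in all 4 groups for 14 members (24.6%, all genes 11.2%), replicate 3 lowest for 14 (24.6%, all genes 15.2%) and replicate 3 highest for 8 (14.0%, all genes 14.2%). ITGA4 averaged 23.5, 39.8 and 12.7 CPM over replicates 1, 2 and 3 and COL9A2, a cartilage FACIT collagen, 16.5, 21.4 and 6.80. COL6A1 averaged 69.5, 132 and 50.5 CPM, and LAMA2, the muscle and nerve laminin chain, 3.93, 6.79 and 0.727. In contrast, ITGA6 averaged 10.02, 7.65 and 45.9 CPM and ITGB5 8.72, 3.94 and 23.4, with replicate 3 highest in each group. The fibroblast marker PDGFRA had the same order as ITGA4 in each group, at 22.3, 43.4 and 8.91 CPM in C and 17.0, 39.4 and 9.70 CPM in I, while THY1 (61.8, 62.2 and 64.4 CPM in C) and LUM (2.95, 2.48 and 0.623 CPM in C) had other orders. The part of such cells in these differences was not tested.

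Other genes of matrix biology, from lists chosen by function, were mostly not called. Among 13 tested other matrix receptors, 2 rose with IFNγ in both comparisons. CD47, an integrin-associated receptor for thrombospondin, changed by 1.36 in I vs C (adjusted p = 0.00399) and 1.31 in DI vs D (adjusted p = 0.00607), and the heparan sulfate proteoglycan SDC3 by 1.48 (adjusted p = 0.00412) and 1.24 (adjusted p = 0.0159). The median change of the 13 was 0.21 in both comparisons. With the number in the model, 3 of the 13 were called higher and 1 lower in I vs C, and 2 higher in DI vs D. The same model called 1 higher and 2 lower in D vs C, and 2 lower in DI vs I. Among 6 tested integrin counter-ligands, ICAM1, the ligand of leukocyte beta 2 integrins, and VCAM1, that of alpha 4 beta 1, rose. VCAM1 was at 0.799, 0.844 and 0.686 CPM in C and 8.26, 17.8 and 6.76 in I (3.80, adjusted p = 0.0007), and ICAM1 was at or under the floor in C and at 30.5, 49.9 and 29.5 CPM in I (adjusted p = 0.000283). In DI vs I both were lower with the number in the model, VCAM1 by −1.43 (adjusted p = 0.0213) and ICAM1 by −1.28 (adjusted p = 0.00948), and neither was called without it.

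Of 24 matrix proteases and inhibitors, 1 rose with IFNγ in both comparisons, the elastin-degrading cathepsin CTSS, from at most 0.123 CPM in C to 2.43, 3.65 and 1.52 CPM in I (adjusted p = 0.00471). Of 29 collagen-modifying enzymes and chaperones, PCOLCE, an enhancer of procollagen processing, rose in DI vs D (0.85, adjusted p = 0.0341). With the number in the model, this list had 3 lower in D vs C and 3 lower in DI vs I. It had 1 higher in I vs C and 1 higher in DI vs D. That model called PCOLCE higher in I vs C (0.65, adjusted p = 0.00164). It called PCOLCE lower in D vs C (−0.55, adjusted p = 0.00513) and in DI vs I (−0.33, adjusted p = 0.0490). Of 27 integrin adaptors and focal adhesion proteins, 1 fell with doxycycline: PARVA, which links integrins to actin through the kinase ILK, by −1.21 in D vs C (adjusted p = 0.0260) and by −1.15 under IFNγ (adjusted p = 0.0422). It was at 36.1, 45.2 and 44.4 CPM in C and at 21.3, 19.1 and 13.8 CPM in D, without overlap. With the number in the model, the adaptor list had 2 higher and 1 lower in D vs C and 2 lower in DI vs I. It had 2 higher in I vs C and 1 higher in DI vs D. The 13 other basement membrane components and the 21 other matrix glycoproteins and proteoglycans had no call in any comparison without the number. Their medians lay between −0.26 and 0.09 over the 4 comparisons of groups. With the number in the model, the basement membrane list had 1 higher and 3 lower in D vs C, 2 lower in DI vs I and 1 lower in DI vs D. The same model called 3 glycoproteins and proteoglycans higher in D vs C, 1 higher and 1 lower in DI vs I, 1 lower in I vs C and 2 lower in DI vs D. The proteoglycan VCAN was the one lower in I vs C (−0.87, adjusted p = 4.55e-05) and was lower in DI vs D too (−1.11, adjusted p = 5.99e-06). Of the proteases and inhibitors, that model called 5 lower in D vs C and 3 lower in DI vs I. It called 2 higher and 2 lower in I vs C, and 1 higher and 2 lower in DI vs D.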

How the data were processed

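RNA from 12 SK-N-DZ libraries was sequenced, and the authors deposited raw counts per gene (43769 genes). The aligner, counting tool, strand setting and genome build are not given in the sources used here. The authors also deposited DESeq2 tables of their own comparisons (log2 fold changes and p-values), which were not used, nor were 18 per-library columns with names that no label explains. All gene identifiers occurred in GENCODE 29 (GRCh38), the source of coordinates and transcript lengths. Promoter windows came from RefSeq (GRCh38.p14).

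Counts were scaled by TMM and filtered with filterByExpr (minimum count 10), then fitted jointly over all 4 groups with the quasi-likelihood test of edgeR 4.0.16 (R 4.3.3), with two-sided tests and Benjamini-Hochberg adjustment over 15828 genes. Called means an adjusted p under 0.05, and a fold change given without mention of the number comes from this model. The labels share replicate numbers without saying what they mark. After group means were removed, same-numbered libraries of different groups correlated at 0.321 to 0.839 (18 pairs) and others at −0.663 to 0.183 (36 pairs), so the numbers pair the libraries and the model with the number as a block stands beside. Same-group libraries differed beyond sampling error (chi-square per gene 18.4 to 78.6). Intervals from counts cover counting error only. Alternatives were DESeq2 (1.42.0), other scalings, no filter, fewer libraries and a threshold of 0.01. The code was tested on simulated data.

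Members and lists were chosen with earlier results of these data known. Genes named were FN1, members called without the number in the model, the 3 highest per kilobase in each family, their partners, and called genes of the other lists (at most 4 a list and comparison). Members called only with the number in the model, the ratios, COL3A1, VCAN and the palindrome TGACGTCA were added after their values were seen. Values of 1 untested member and 1 check gene are not reported here.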

Additional observations from a re-analysis of the deposited data

Results flagged for a closer look

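The change of FN1 with doxycycline differed between cells without and with IFNγ, by a test of the difference itself in a single form of the model. With the replicate number fitted within each doxycycline arm, the difference of the differences was −1.19 on the log2 scale (edgeR adjusted p = 0.0009004), and it was negative in 3 of 3 replicate numbers. It was not called in the model of groups alone (adjusted p = 1.00), with the number as a term shared by both arms (0.172) or by DESeq2 (1.00). The reason was not tested.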

How the results depend on the processing

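With the replicate number as a block, the members called went from 0 to 7 in D vs C, 0 to 8 in DI vs I, 2 to 11 in I vs C and 0 to 8 in DI vs D, and with the block within each doxycycline arm from 0 to 1 in the interaction. DESeq2 called 1, 2, 5 and 1 in these 4 comparisons and 0 in the interaction. Of all genes it tested, it called 4.75%, 3.13%, 2.9% and 2.21% in the 4 comparisons. For I vs C, the 2 groups alone and a threshold of 0.01 each left 1, FN1. Scaling by RLE or library size and testing without the filter kept all 5 counts within 1.5 times.

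Leaving out each library gave 0 to 1 members in D vs C (1 without C replicate 1), 0 to 0 in DI vs I, 1 to 4 in I vs C (1 without any C replicate, I replicates 1 or 2, or DI replicate 3, and 4 without I replicate 3), 0 to 1 in DI vs D (1 without DI replicate 1) and 0 to 0 in the interaction. With the block, added after seeing the data, the ranges were 5 to 8 in D vs C, 3 to 9 in DI vs I (4 without I replicate 1, 5 without I replicate 3 or DI replicate 1, 3 without DI replicate 3), 4 to 13 in I vs C (6, 7 and 6 without C replicates 1, 2 and 3, 4 and 5 without I replicates 1 and 2, 7 without DI replicate 1) and 2 to 8 in DI vs D (5 and 4 without D replicates 1 and 2, 2 without DI replicate 1). Of the 34 calls of single members with the block, 14 were called whichever library was left out: FN1, ITGB8, COL11A1 and COL14A1 in I vs C, FN1 and COL11A1 in DI vs D, FN1, LAMA1, LAMC1, COL26A1 and ITGB5 in D vs C, and LAMA1, COL26A1 and ITGB5 in DI vs I. At a threshold of 0.01 with the block, 4 members remained called in each of DI vs I, I vs C and DI vs D, and 5 in D vs C.

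Of the fold changes of single members, 2 reversed on leaving out 1 library. COL25A1 in D vs C, −4.29 with all libraries, was 0.70 without C replicate 1, and its range was −7.41 to 0.70. ITGB5 in I vs C, −0.84 with all libraries, was 0.13 without C replicate 3, and its range was −1.98 to 0.13. The block changed no other call among the named members than those given with it. Members under about 0.187 CPM rest on 3 counts or fewer a library, and differences there were not detectable.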
